A study of Saccharomyces cerevisiae with 17 samples.

Results

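In Saccharomyces cerevisiae, the brr6-1 mutant was compared with wild type (WT) in 4 RNA-seq libraries taken 2 h after galactose was added, with libraries A and B of each strain as biological replicates per the labels. These are 4 of the 17 libraries of the series, and each holds read counts for 6572 gene rows, of which 184 carry chromosome III names and are reported apart from the other 6388. WT was strain YPH399, a MATα strain carrying ade2-10 and lys2-801 as well as leu2-1, ura3-52 and Trp1-63. The mutant, yDBK168, had the same background plus brr6-1 marked with LEU2 and HIS3, where brr6-1 changes an arginine to a lysine in a putative zinc finger of Brr6. Each genotype is thus represented by a single strain, and anything else that differs between these strains cannot be told apart from the point mutation. Cells of all groups grew at 30 °C in YEP medium, here with 2% raffinose and 0.04% sucrose before 2% galactose was added. The matching libraries grown in 2% glucose, again 2 of each strain, serve below as a comparison.

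Brr6 is an essential membrane protein of the nuclear envelope that works with Brl1 and Apq12 in nuclear pore assembly and in the lipid balance of the envelope. Galactose genes in yeast are held off by Gal80 bound to the activator Gal4, and are switched on when Gal3 binds galactose and draws Gal80 away. Active GAL genes are known to move to the nuclear pore, where the SAGA and TREX-2 complexes take part in their transcription and export. Once inside the cell, galactose is turned into glucose phosphates by the Leloir enzymes and enters glycolysis.

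Reads assigned to genes numbered 21092421 and 20067326 in the WT libraries A and B and 16089594 and 16944943 in the brr6-1 libraries. Levels below are CPM, the usual depth-scaled read count, after trimmed-mean (TMM) scaling, given for libraries A and B in that order. Adjusted p-values are from edgeR's quasi-likelihood test with Benjamini-Hochberg adjustment over all 6297 genes tested, errors of log2 fold changes are standard errors, and n is 2 libraries per group throughout. A gene is said to rise or fall only where it passed at 0.05, and named genes that did so had adjusted p-values of 5.89e-06 to 0.0345. Within WT the 2 libraries were less alike than within brr6-1, with a correlation of log2 levels across genes of 0.989 against 0.995. Reads outside genes made 37.3% and 26.7% of reads in and outside genes in WT, and 37.5% and 36.2% in brr6-1. Each library pools many cells, so a lower level in every cell and a loss of expression in some cells cannot be told apart. The cells' total RNA was not measured, so a shift of all genes together was not measured either.

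The labelled locus and markers came first as a check. BRR6 itself was 24.4 and 19.1 CPM in WT and 216 and 169 CPM in brr6-1, a rise of 3.14 ± 0.17 log2 units (adjusted p = 5.89e-06), and the label of a point mutation is not tested by its level. PDE1, a cyclic AMP phosphodiesterase gene directly upstream of BRR6 on chromosome VII, measured 84.4 and 87.9 CPM in WT and 1016 and 789.6 CPM in brr6-1 (log2 change 3.39 ± 0.16). In the R64 annotation PDE1 spans 35653 to 36762, BRR6 36933 to 37526 and RAI1, which encodes an RNA quality-control partner of the exonuclease Rat1, 37617 to 38780. RAI1 rose as well, by 0.81 ± 0.13 log2 units (adjusted p = 0.0024). All 3 neighbours were thus higher in the mutant, in the order PDE1, BRR6, RAI1, and the PDE1 and BRR6 levels of the 2 strains lay far apart. HIS3, a histidine synthesis gene used as a marker, had 6 and 3 reads in the WT libraries and 292 and 298 in the brr6-1 libraries (adjusted p = 0.000141). The genotype given for WT names no his3 allele, while its libraries were nearly without HIS3 reads.

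The mating type was read from its genes. The alpha-factor gene MF(ALPHA)1 was 113 and 88.0 CPM in WT and 162 and 151 CPM in brr6-1, and STE3, the a-factor receptor of alpha cells, was 103 and 88.0 CPM in WT and 87.0 and 94.8 CPM in brr6-1 (log2 change -0.07 ± 0.15). MFA1 and MFA2, which encode the a-factor made by a cells, stayed at or below 2.13 CPM in all 4 libraries. STE6, the exporter of a-factor, went against this pattern at 76.1 and 69.0 CPM in WT and 71.5 and 77.3 CPM in brr6-1 (log2 change 0.04 ± 0.11), and STE2, the alpha-factor receptor, measured 8.07 and 7.69 CPM in WT and 7.58 and 6.40 CPM in brr6-1 (log2 change -0.17 ± 0.19). The MAT alpha genes had 0 unique reads in every library, as did the silent copies other than HMRA1, so the MATα label rests on MF(ALPHA)1 and STE3. Of 4 alpha-specific genes tested 3 were higher in brr6-1, at 0.64 ± 0.15 for MF(ALPHA)1, 1.07 ± 0.23 for SAG1, an agglutinin, and 1.1 ± 0.32 for MF(ALPHA)2 on the log2 scale. None of these 3 calls held without brr6-1 library A or without WT library B (adjusted p 0.0699 to 0.145), and MF(ALPHA)2 lost its call also without brr6-1 library B or with only the 4 galactose libraries fitted (0.1 and 0.0566).

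Outside chromosome III, 898 genes fell and 385 rose in brr6-1 among 6121 tested, or 14.7% lower and 6.29% higher. Changes of at least 2-fold were also mostly downward, with 248 lower genes and 96 higher ones. The median log2 fold change of these 6121 genes was 0.00. Scaling by library totals alone moved all genes up by 0.24 log2 units and turned the split to 437 lower and 1170 higher, so the balance of directions depends on the scaling and single changes are best read against that shift. Leaving out 1 library at a time gave 280 to 1017 lower and 49 to 644 higher genes, the lowest counts without brr6-1 library A and the highest without WT library A. Of the called genes, 242 lower and 35 higher ones kept their direction and their call under all 13 alternatives.

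Weakly expressed genes moved differently from the rest. Outside chromosome III, 960 genes with a mean under 2 log2 CPM had a median log2 fold change of 0.76 with 58 higher and 9 lower, whereas the 797 genes of at least 8 log2 CPM had a median of -0.12 with 51 higher and 184 lower. The 523 tested gene names outside chromosome III that are not in the RefSeq table, many of them weak or dubious reading frames, had a median of 0.81. Gene length moved with the change as well. Among genes of at least 2 log2 CPM outside chromosome III, the longest of 4 equal groups had a median of 0.02 with 104 higher and 148 lower, and the next to shortest group a median of -0.15 with 45 higher and 283 lower. The part of read background, RNA quality or composition in these trends was not tested. The number of members under 2 log2 CPM is given below for several lists, and lists without it can hold such members too. The plot of change against level shows the spread.

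**Figure D1:**
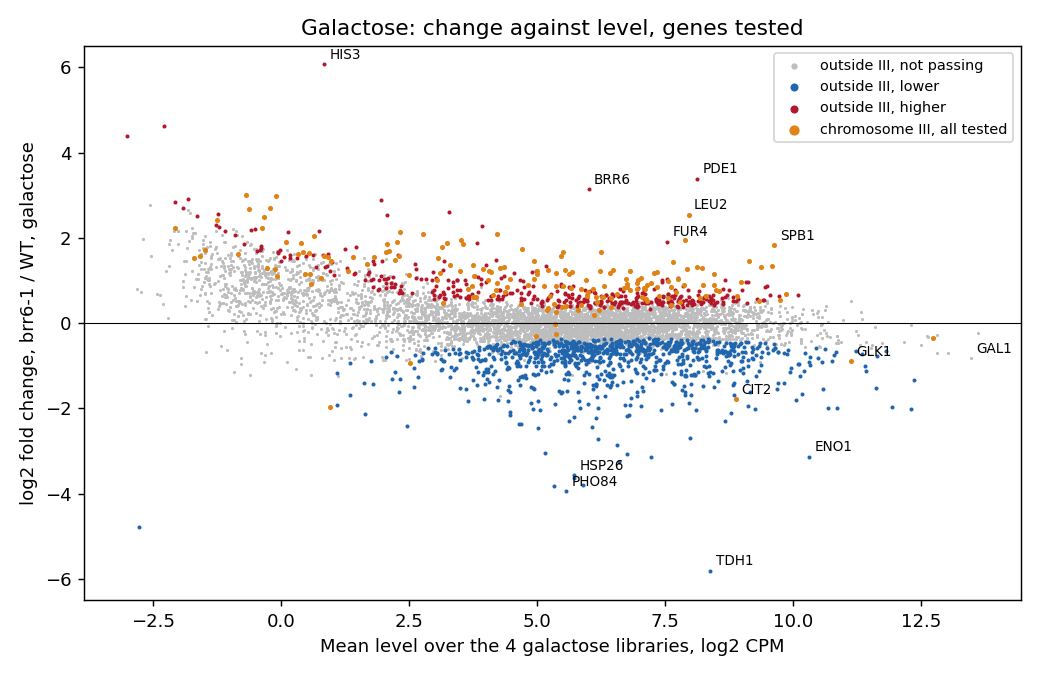
Each point is one of the 6297 tested genes, with the mean level over the 4 galactose libraries (log2 CPM) on the horizontal axis and the log2 fold change of brr6-1 over WT on the vertical axis. Genes outside chromosome III that passed the test are blue (898 lower) or red (385 higher), others grey, and all chromosome III genes orange. TDH1 is the lowest point at -5.81, and the orange points lie mostly above 0.

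Chromosome III stood apart from every other chromosome. Of its 176 tested genes, 137 rose (77.8%) and 3 fell (1.7%), and the median log2 fold change was 1.03. With each library left out in turn, 93 to 138 of them rose and 1 to 4 fell. For genes of at least 2 log2 CPM the median was 0.89 on chromosome III over 143 genes, and between -0.13 and -0.03 on the other 15 chromosomes. Reads of chromosome III genes made 2.54% and 2.37% of the gene reads in the WT libraries and 3.94% and 3.89% in the brr6-1 libraries. Every pairing of a brr6-1 with a WT library gave a median log2 ratio between 0.89 and 0.93, with 136 or 137 of 143 genes above 0. The rise covered both arms, with a median of 1.16 over 65 genes on the left and 1.02 over 111 genes on the right. In glucose the median over the same 176 genes was 1.19. Whether the mutant strain carries an additional copy of the chromosome was not measured, and for these genes a change in copy number and a change in regulation cannot be told apart.

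**Figure D2:**
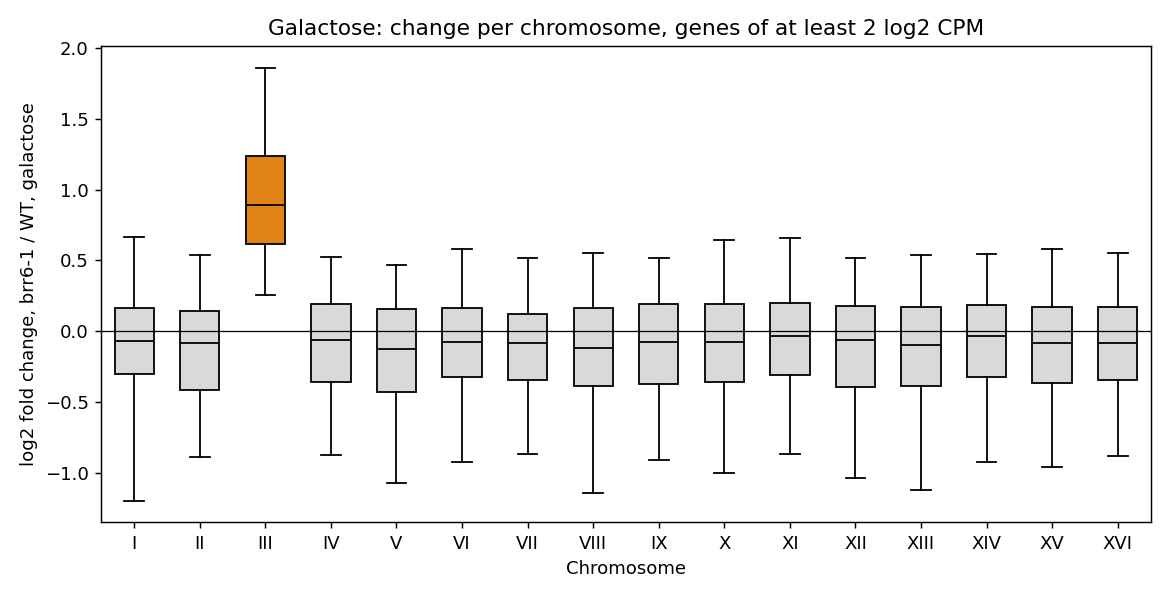
Boxes show the log2 fold change of brr6-1 over WT in galactose for genes of at least 2 log2 CPM on each chromosome, with the median as a line, the quartiles as box ends and the 5th and 95th percentiles as whiskers. Chromosome III (orange) has a median of 0.89, and the other 15 medians lie between -0.13 and -0.03.

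Chromosome III changes were not uniform. Of the 143 better-expressed genes, 100 lay between 0.5 and 1.5 log2 units, 20 above 1.5 and 7 below 0. LEU2, a leucine synthesis gene that also marks the mutant allele, was 94.3 and 113 CPM in WT and 563 and 642 CPM in brr6-1 (log2 change 2.54 ± 0.19), the largest rise among chromosome III genes of that level. FUS1 and FIG2, genes of cell fusion during mating, were low in all libraries and rose by 2.10 ± 0.33 and 2.14 ± 0.42 log2 units. EMA35 and YCR099C rose by 2.09 ± 0.20 and 1.95 ± 0.20. GFD2 was 102 and 142 CPM in WT and 549 and 388 CPM in brr6-1, a rise of 1.94 ± 0.20 (adjusted p = 0.000167) where the glucose libraries gave 0.20. The 3 falls were CIT2, GLK1 and a short, weakly expressed reading frame, YCL048W-A. CIT2, the peroxisomal citrate synthase and a target of the retrograde pathway, was 809.7 and 965 CPM in WT and 195 and 319 CPM in brr6-1 (log2 change -1.79 ± 0.24), and the glucokinase GLK1 3106 and 2998 CPM in WT and 1446 and 1851 CPM in brr6-1 (log2 change -0.89 ± 0.16). YCL048W-A lost its call without WT library A or without either brr6-1 library (adjusted p 0.0601 to 0.147), and GLK1 without brr6-1 library A (adjusted p = 0.0645). PGK1, the glycolytic phosphoglycerate kinase, which lies on this chromosome too, did not pass at -0.34 ± 0.16 (adjusted p = 0.158), but did in DESeq2's Wald test (-0.34, adjusted p = 0.0307).

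Among the 58 gene lists examined, chromosome III supplied a large part of the rises. Of 1385 genes in any list, 30 lie on it, yet they hold 19 of the 93 list genes that rose and 1 of the 352 that fell. Rises on chromosome III are therefore named as such below. Counts per list are read against the background of 14.7% lower and 6.29% higher, and a range after a count gives its lowest and highest value with each of the 4 galactose libraries left out in turn.

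The galactose pathway itself was strongly expressed in both strains. GAL1, the galactokinase, was 13354 and 17182 CPM in WT and 7652 and 9531 CPM in brr6-1, with a log2 fold change of -0.83 ± 0.31 (adjusted p = 0.0785). GAL10, the epimerase, was 8367 and 9919.9 CPM in WT and 5699 and 5565 CPM in brr6-1, at -0.70 ± 0.30 (adjusted p = 0.118). The permease GAL2 was 10600.0 and 10568 CPM in WT and 6610.2 and 6397 CPM in brr6-1, at -0.70 ± 0.36 (adjusted p = 0.179). None of the 3 passed, though each passed when only the 4 galactose libraries were fitted (adjusted p at most 0.0299). GAL1 and GAL10 also passed in DESeq2's Wald test (adjusted p 0.0103 and 0.0315). GAL7, the uridylyltransferase, was 1721 and 2060.3 CPM in WT and 1141 and 1012 CPM in brr6-1 and fell by 0.81 ± 0.21 log2 units (adjusted p = 0.02). PGM2, the phosphoglucomutase that links the pathway to glycolysis, was 979 and 1030.4 CPM in WT and 257 and 402 CPM in brr6-1 (log2 change -1.61 ± 0.20), the larger fall of the 2 that passed among 6 enzyme and permease genes. GAL enzyme and permease genes together took 3.68% and 3.96% of gene reads in WT and 2.58% and 2.71% in brr6-1. Among the regulators, the sensor GAL3 was 422 and 515 CPM in WT and 235 and 231 CPM in brr6-1 and fell by 1.01 ± 0.13 (adjusted p = 0.000655), and the repressor GAL80 fell by 0.91 ± 0.21 (adjusted p = 0.0131). The activator GAL4, at 9.34 and 8.25 CPM in WT and 10.7 and 9.52 CPM in brr6-1, did not pass (0.20 ± 0.26), with the mutant libraries slightly above the WT libraries. GAL7 and GAL80 lost their calls without WT library B or without either brr6-1 library (adjusted p 0.0524 to 0.12).

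Several other sugar genes fell too. HXT7, a high-affinity glucose transporter gene, was 55.6 and 39.2 CPM in WT and 12.1 and 9.32 CPM in brr6-1 (log2 change -2.15 ± 0.21), and HXT4 fell by 0.90 ± 0.24 (adjusted p = 0.0247). Reads of HXT7 and its near-identical copy HXT6 may be split between them. Of 15 hexose transporter genes tested, 5 of them under 2 log2 CPM, 6 fell (1 to 6) and 1 rose (0 to 8), while the list's median was 0.64, or -0.50 among genes with at least 100 counts in 2 libraries. The riser, HXT14, was 5.08 and 1.24 CPM in WT and 12.0 and 7.45 CPM in brr6-1 (log2 change 1.60 ± 0.47). Invertase, encoded by SUC2, fell by 0.99 ± 0.18 and the maltase gene MAL12 fell by 1.33 ± 0.18 on the log2 scale. NRG2, a repressor of glucose-repressed genes, was 26.3 and 49.1 CPM in WT and 14.8 and 12.2 CPM in brr6-1 (log2 change -1.48 ± 0.25), and STD1, which acts in glucose sensing, was 11.7 and 9.29 CPM in WT and 22.5 and 20.8 CPM in brr6-1 (log2 change 1.04 ± 0.17). HXT4, HXT14 and SUC2 lost their calls without brr6-1 library A (adjusted p 0.133, 0.237 and 0.0651), HXT4 and HXT14 also without WT library B or brr6-1 library B. HXT4 was lost as well with scaling by totals (0.0563), and HXT14 with only the 4 galactose libraries fitted (0.0675).

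Glycolysis fell at nearly every step. Of 11 upper genes 9 were lower (7 to 9) and of 11 lower genes 9 (8 or 9) in brr6-1, and none was higher, with median log2 fold changes of -1.01 and -1.80. TDH1, a glyceraldehyde-3-phosphate dehydrogenase, changed most of all genes outside chromosome III of at least 2 log2 CPM. Its level was 3031 and 2013 CPM in WT and 46.4 and 43.5 CPM in brr6-1, a fall of 56.1-fold (-5.81 ± 0.30 log2 units, adjusted p = 5.89e-06). The WT libraries differed from each other by far less than from the mutant, whose 2 libraries were nearly equal. TDH2, an isozyme, was 1999 and 2007 CPM in WT and 476 and 670.5 CPM in brr6-1 (log2 change -1.80 ± 0.22). Per gene length, in the length- and depth-scaled unit TPM, TDH1 stood at 4125 and 2467 in WT and 74.0 and 68.4 in brr6-1. TDH2 stood at 2720.1 and 2459.8 in WT and 759.5 and 1055 in brr6-1, above TDH1 in both brr6-1 libraries. Only uniquely aligned reads enter these levels, the loss of reads shared between isozymes was not measured, and no further isozyme is ranked here. Enolase 1, ENO1, was 4229 and 3323 CPM in WT and 366 and 494 CPM in brr6-1 (log2 change -3.13 ± 0.21). The pyruvate kinase CDC19 was 9554 and 11132 CPM in WT and 1949 and 3159.7 CPM in brr6-1 (log2 change -2.02 ± 0.26), and the phosphoglycerate mutase GPM1 3616 and 3815 CPM in WT and 982 and 879.6 CPM in brr6-1 (log2 change -2.0 ± 0.16). At the top of the pathway, hexokinase HXK1 fell by 1.67 ± 0.17, the glucokinase relative EMI2 fell by 1.41 ± 0.18, PGI1 fell by 1.01 ± 0.17 and the phosphofructokinase subunit PFK2 fell by 1.13 ± 0.15. The middle enzymes FBA1 (aldolase) and TPI1 (triose-phosphate isomerase) fell with log2 changes of -1.52 ± 0.16 and -1.56 ± 0.15. All of these kept their calls under the 13 alternatives. GCR1, the activator of glycolytic genes, was 108 and 84.2 CPM in WT and 51.9 and 52.2 CPM in brr6-1 and fell by 0.89 ± 0.14 (adjusted p = 0.00189). Lower glycolysis genes made 4.27% and 3.95% of gene reads in WT and 1.75% and 1.89% in brr6-1, and upper genes 2.42% and 2.53% against 1.29% and 1.42%.

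Fermentation and the pentose phosphate pathway followed. Of 17 fermentation and acetate genes, 8 fell (4 to 9) and none rose. The main alcohol dehydrogenase ADH1 was 7495 and 7939 CPM in WT and 2159.8 and 1763 CPM in brr6-1 (log2 change -1.98 ± 0.18), and ADH2, which oxidises ethanol, 268 and 358 CPM in WT and 43.7 and 21.3 CPM in brr6-1 (log2 change -3.27 ± 0.32). Per gene length, ADH1 stood at 9732 and 9283 in WT and 3286 and 2646 in brr6-1 in TPM, and ADH2 at 348 and 419 in WT and 66.5 and 31.9 in brr6-1. ALD4 and ALD6, the mitochondrial and cytosolic acetaldehyde dehydrogenases, fell with log2 changes of -2.04 ± 0.14 and -0.88 ± 0.15, and the pyruvate decarboxylase PDC1 fell by 0.96 ± 0.17. PDC1 lost its call without brr6-1 library A (adjusted p = 0.0549). In the pentose phosphate pathway 8 of 11 genes fell (4 to 9) with a median of -1.06. ZWF1, which makes the first NADPH of the pathway, was 107 and 119 CPM in WT and 40.6 and 42.3 CPM in brr6-1 (log2 change -1.45 ± 0.12). The transketolase TKL1 fell by 1.36 ± 0.16 and the minor 6-phosphogluconate dehydrogenase GND2 fell by 1.34 ± 0.21.

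**Figure D3:**
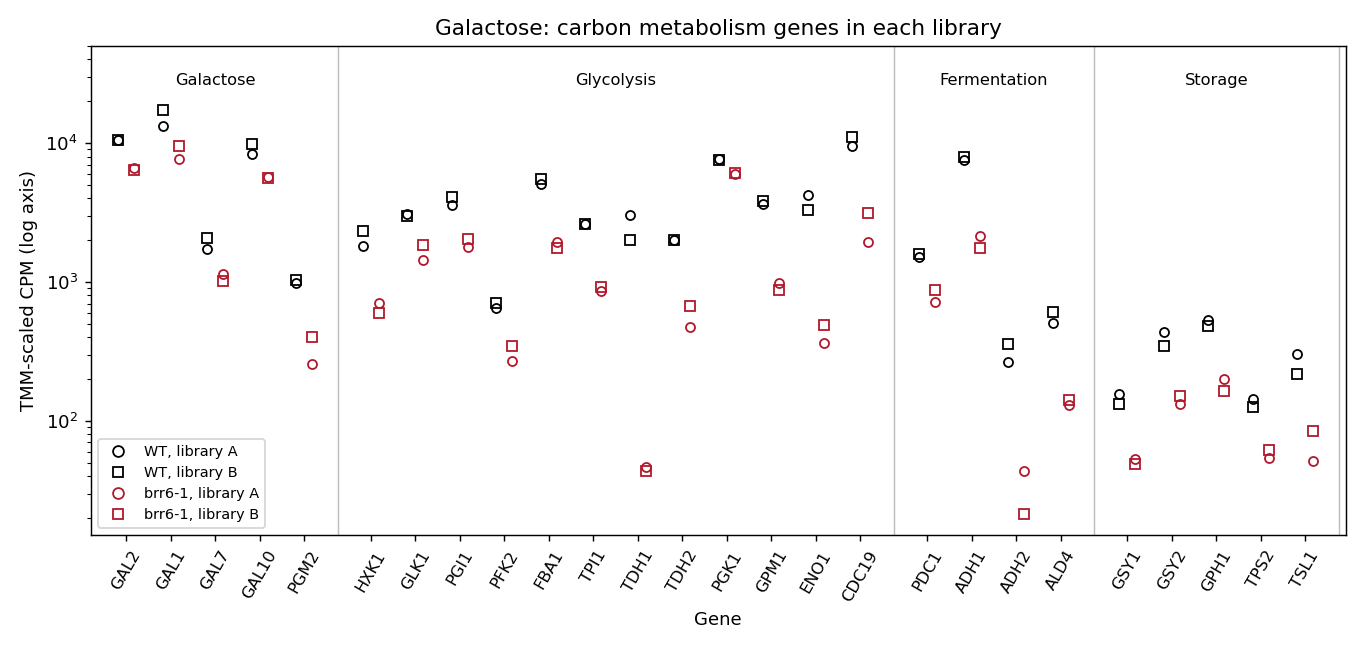
TMM-scaled CPM on a log axis for 26 genes of galactose use, glycolysis, fermentation and storage carbohydrates in each of the 4 galactose libraries (WT black, brr6-1 red, library A circles, library B squares). The genes were chosen with earlier results of these data known, and not all of them passed the test. The gap between the strains is widest at TDH1 and narrow at PGK1.

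Respiratory genes showed no such fall as a list. Of 42 respiratory chain and ATP synthase genes, 7 rose (1 to 14) and 3 fell (1 or 2), with a median of 0.18, or 0.41 with scaling by totals. ATP18, a small subunit of ATP synthase, was 12.6 and 10.4 CPM in WT and 22.7 and 22.3 CPM in brr6-1 (log2 change 0.97 ± 0.16). The heme-dependent activator HAP1 was the largest fall of the list at 429.5 and 534 CPM in WT and 138 and 126 CPM in brr6-1 (log2 change -1.86 ± 0.15). HAP1 transcripts in WT thus exceeded those of the mutant in each library, by 3.64-fold in the fit. In the TCA cycle 4 of 20 genes fell (3 or 4) and 2 rose (1 to 4, and 4 with scaling by totals). The risers were succinate dehydrogenase subunits, SDH4 at 29.8 and 16.7 CPM in WT and 49.5 and 67.9 CPM in brr6-1 (log2 change 1.33 ± 0.25) and SDH3 at 25.6 and 15.2 CPM in WT and 38.6 and 34.8 CPM in brr6-1 (log2 change 0.84 ± 0.24). The mitochondrial isocitrate dehydrogenase IDP1 fell by 1.44 ± 0.19 (adjusted p = 0.000701). The cytosolic malate dehydrogenase gene MDH2, used in gluconeogenesis, rose by 1.17 ± 0.19. Of 20 gluconeogenesis and glyoxylate genes 1 rose (1 to 5, and 5 with scaling by totals) and 3 fell (1 or 2). Among 76 mitochondrial ribosomal protein genes 10 rose (4 to 8) and 2 fell (1 to 4). The risers, of which 2 lie on chromosome III, included MRPL44 at 1.20 ± 0.19 and, on that chromosome, MRPL32 at 1.06 ± 0.13. SDH3 lost its call without WT library B or without either brr6-1 library (adjusted p 0.0881 to 0.179).

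Reserve carbohydrate genes fell as a group, while in glucose none had fallen. Of 18 trehalose and glycogen genes, 12 were lower (9 to 12) and none was higher in galactose, with a median of -0.89, against 9 higher and 0 lower in glucose, with a median of 0.44. The difference between the media passed for 13 of the 18. Glycogen synthase genes GSY1 and GSY2 were 156 and 132 CPM in WT and 53.0 and 48.8 CPM in brr6-1 (log2 change -1.50 ± 0.25) for the first and 434 and 347 CPM in WT and 131 and 151 CPM in brr6-1 (log2 change -1.47 ± 0.15) for the second. GPH1, which breaks glycogen down, was 531 and 485 CPM in WT and 199 and 164 CPM in brr6-1 (log2 change -1.49 ± 0.13). Genes of trehalose synthesis fell likewise. TPS2 fell by 1.21 ± 0.13 and TSL1 fell by 1.94 ± 0.26. Synthesis and breakdown genes therefore moved in the same direction.

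Part of the stress genes were lower in the mutant. HSP26, a small heat shock protein, was 151 and 221 CPM in WT and 18.6 and 12.6 CPM in brr6-1 (log2 change -3.57 ± 0.26), and HSP12, which protects membranes, 165 and 147 CPM in WT and 30.4 and 27.1 CPM in brr6-1 (log2 change -2.44 ± 0.18). Each fell in both mutant libraries well below either WT library. Of 31 targets of the general stress activators Msn2 and Msn4, 18 fell (8 to 16) and none rose (0 to 2). TMA10 fell by 1.60 ± 0.16 and the nicotinamidase PNC1 fell by 1.68 ± 0.23. The list of 29 heat shock proteins and chaperones was near the background, with 5 lower (3 to 10) and 1 higher, and HSP82, the Hsp90 chaperone, did not pass at -0.47 ± 0.27. Vacuolar proteases were lower too. APE1 fell by 1.93 ± 0.28, PRB1 fell by 1.33 ± 0.18 and PEP4 fell by 1.09 ± 0.20, within a list of 23 genes in which 10 were lower (4 to 9). PEP4 lost its call without brr6-1 library A (adjusted p = 0.0602).

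Oxidoreductases were among the largest falls, and here the WT libraries differed from each other. OYE3, an NADPH oxidoreductase, was 379 and 107 CPM in WT and 16.0 and 19.0 CPM in brr6-1 (log2 change -3.80 ± 0.47), so that WT library A stood several times above WT library B and both above the mutant. GRE2, a methylglyoxal reductase, was 623 and 297 CPM in WT and 46.6 and 57.4 CPM in brr6-1 (log2 change -3.15 ± 0.29), and the reductase YML131W 425 and 220.2 CPM in WT and 32.4 and 44.6 CPM in brr6-1 (log2 change -3.07 ± 0.29). ECM4, a glutathione transferase, and YNL134C, an oxidoreductase, shared that order of libraries and fell with log2 changes of -2.73 ± 0.31 and -2.69 ± 0.37. OYE2, in contrast, was 902 and 903 CPM in WT and 204 and 161 CPM in brr6-1 (log2 change -2.30 ± 0.18) with near-equal WT libraries. Of 31 oxidative stress and redox genes 16 fell (9 to 17) and none rose. GSH1, the first enzyme of glutathione synthesis, fell by 1.43 ± 0.20 and the mitochondrial peroxiredoxin PRX1 fell by 1.74 ± 0.22. The activator of many of these genes, YAP1, did not pass at -0.09 ± 0.12. Glycerol phosphatases GPP1 and GPP2 fell with log2 changes of -1.57 ± 0.16 and -1.48 ± 0.26 among 17 osmotic and glycerol genes, of which 9 fell (3 to 8). The osmotic kinase gene HOG1 did not pass at -0.12 ± 0.15.

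Phosphate genes fell across transport, storage and signalling. PHO84, the high-affinity phosphate transporter, was 171 and 207 CPM in WT and 15.0 and 9.67 CPM in brr6-1 (log2 change -3.94 ± 0.25), and the sodium-coupled transporter PHO89 119 and 186 CPM in WT and 11.2 and 10.4 CPM in brr6-1 (log2 change -3.82 ± 0.32). Of 12 transporter and phosphatase genes 8 fell (6 to 8). The other called members, 2 of the 12, lie on chromosome III and rose, among them the glycerophosphoinositol transporter GIT1 at 1.31 ± 0.15. The nucleotidase PHM8 fell by 2.36 ± 0.14 and the acid phosphatases PHO5 and PHO12 fell with log2 changes of -1.82 ± 0.14 and -1.51 ± 0.22. PHO12 has a near-identical copy, so its reads are uncertain. Among 18 regulators and polyphosphate genes 9 fell (6 to 8) and none rose. VTC3, a subunit of the vacuolar polyphosphate polymerase, was 901 and 929 CPM in WT and 213 and 213 CPM in brr6-1 (log2 change -2.10 ± 0.14), and SPL2, which restrains low-affinity uptake, 6.94 and 6.24 CPM in WT and 1.19 and 1.81 CPM in brr6-1 (log2 change -2.13 ± 0.26).

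Iron genes fell as widely. Of 18 uptake and siderophore genes 14 were lower (10 to 15) and none higher, with a median of -1.13. The cell wall mannoproteins FIT2 and FIT3, which hold siderophores, were 122 and 266 CPM in WT and 18.8 and 12.5 CPM in brr6-1 (log2 change -3.63 ± 0.36) for FIT2 and 75.5 and 137 CPM in WT and 16.3 and 9.52 CPM in brr6-1 (log2 change -3.04 ± 0.35) for FIT3. WT library B was the higher WT library for these 2 genes, the reverse of the oxidoreductases. The siderophore transporter ARN1 was 209 and 252 CPM in WT and 52.9 and 48.8 CPM in brr6-1 (log2 change -2.18 ± 0.14), and the multicopper ferroxidase FET3 1138 and 1712 CPM in WT and 431 and 550.5 CPM in brr6-1 (log2 change -1.54 ± 0.26). TIS11, which degrades mRNAs when iron is short, fell by 2.46 ± 0.30, and the iron-sulfur scaffold ISU2 fell by 1.82 ± 0.15, in a list of 19 iron regulators and storage genes of which 9 fell (4 to 8) and 1 rose. Of 16 zinc and copper genes 3 fell (1 to 4), the largest being the zinc transporter ZRT1 at 129 and 183 CPM in WT and 41.7 and 25.3 CPM in brr6-1 (log2 change -2.22 ± 0.26).

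Nitrogen and amino acid genes fell in part. GDH1, which assimilates ammonium into glutamate, was 2866 and 3732 CPM in WT and 810.0 and 843 CPM in brr6-1 (log2 change -2.0 ± 0.21). Glutamine synthetase GLN1 fell by 1.68 ± 0.16 and the general amino acid permease GAP1 fell by 1.43 ± 0.14, among 33 nitrogen genes of which 11 fell (7 to 11) and 1, on chromosome III, rose. In leucine synthesis 7 of 12 genes fell (3 to 7). OAC1, a mitochondrial carrier of oxaloacetate and isopropylmalate, was 208 and 303 CPM in WT and 34.8 and 35.4 CPM in brr6-1 (log2 change -2.86 ± 0.30). LEU1 was 1131 and 1053 CPM in WT and 263 and 303 CPM in brr6-1 (log2 change -1.95 ± 0.19) and BAT1, the mitochondrial branched-chain transaminase, 99.2 and 131 CPM in WT and 29.1 and 29.1 CPM in brr6-1 (log2 change -1.98 ± 0.15). LEU2, whose rise is given above, belongs to the same pathway but marks the mutant allele, while the WT label names a leu2 allele. The labels thus give the strains different LEU2 genotypes. Leucine synthesis itself was not measured, and the part of the genotype difference in these falls was not tested. Methionine genes MET2 and MET6 fell with log2 changes of -2.21 ± 0.24 and -1.43 ± 0.19, among 34 sulfur genes of which 14 fell (6 to 15). Of 17 arginine, histidine and GCN4 genes only 1 was lower, and of 10 lysine genes 2 (0 to 6). In one-carbon and purine metabolism SHM2, a serine hydroxymethyltransferase, fell by 1.23 ± 0.25 and ADE3 fell by 1.25 ± 0.19. Of 19 purine genes 7 fell (2 to 7). SHM2 lost its call without either brr6-1 library (adjusted p 0.0665 and 0.0536).

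FUR4, the uracil permease gene, had the largest rise among called genes of at least 5 log2 CPM outside chromosome III apart from PDE1 and BRR6. Its level was 103 and 90.3 CPM in WT and 339 and 386 CPM in brr6-1, a rise of 1.90 ± 0.16 (adjusted p = 5.26e-05), and it kept its call under all 13 alternatives. FUR4 lies at 281443 to 283344 on chromosome II in R64, directly beyond GAL1 at 279021 to 280607, with GAL10 and GAL7 on the other side. Of these GAL neighbours GAL7 fell, and GAL1 and GAL10 did not pass. Whether reads running on from GAL1 reach FUR4 was not tested. Most other large rises were genes of low level. YIR042C was 5.35 and 2.89 CPM in WT and 18.5 and 31.8 CPM in brr6-1 (log2 change 2.60 ± 0.32), YHL050C 8.70 and 5.37 CPM in WT and 31.1 and 37.2 CPM in brr6-1 (log2 change 2.27 ± 0.22) and YKR015C 10.7 and 4.80 CPM in WT and 27.2 and 29.7 CPM in brr6-1 (log2 change 1.87 ± 0.29). SOA1, a transporter of sulfur compounds, rose by 1.47 ± 0.20, the formate dehydrogenase FDH1 by 1.36 ± 0.33, the biotin precursor transporter BIO5 by 1.24 ± 0.25, the sporulation genes MUM3 and SPR3 by 1.39 ± 0.23 and 1.28 ± 0.30, COS8 by 1.46 ± 0.29 and YAR047C by 2.55 ± 0.41. BIO5, COS8, FDH1 and SPR3 lost their calls without brr6-1 library A (adjusted p 0.0549 to 0.135), and COS8, FDH1 and SPR3 also without WT library B, FDH1 also without brr6-1 library B (0.0843). YAR047C is not in the RefSeq table.

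Ribosome synthesis split into its parts. Of 104 ribosome biogenesis genes 26 rose (5 to 24) and none fell (0 to 4), with a median of 0.28, against 6 higher and 29 lower in glucose with a median of -0.26. The difference between the media passed for 11 of the 104. Leaving aside the 4 members on chromosome III, 22 of 100 rose and the median was 0.25. Reads of the list made 2.38% and 2.58% of gene reads in WT and 4.23% and 3.39% in brr6-1, so the mutant libraries differed from each other more than the WT libraries did. The rRNA methyltransferase SPB1, on chromosome III, was 425 and 425 CPM in WT and 1728 and 1274 CPM in brr6-1 (log2 change 1.82 ± 0.18), and its chromosome III companions PWP2 and KRR1 rose by 1.33 ± 0.16 and 1.15 ± 0.21. Off that chromosome, UTP14, of the small-subunit processome, was 159 and 141 CPM in WT and 355 and 272 CPM in brr6-1 (log2 change 1.07 ± 0.16), NOP4 rose by 1.00 ± 0.23 and TOD6, a repressor of these genes, by 1.02 ± 0.22. CBF5, the pseudouridine synthase, did not pass at 0.01 ± 0.19. RRN3, a factor that recruits RNA polymerase I, rose by 0.88 ± 0.16. NOP4, TOD6 and KRR1 lost their calls without brr6-1 library A (adjusted p 0.0514 to 0.12), NOP4 also without WT library B, and with that mutant library left out 5 of the 104 rose.

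Cytosolic ribosomal protein genes tended the other way. Of 137 genes 40 fell and 4 rose, with a median of -0.31, and leaving out 1 library gave 1 lower gene (without brr6-1 library A) to 69. With scaling by totals the median was -0.06, with 12 lower and 19 higher. RPL30 was 341 and 299 CPM in WT and 163 and 169.5 CPM in brr6-1 and fell by 0.94 ± 0.15. RPS14A, on chromosome III, rose by 1.24 ± 0.18. RPL3, which encodes a large-subunit protein, was 5564 and 8558 CPM in WT and 5784 and 5644 CPM in brr6-1 (log2 change -0.31 ± 0.23) and did not pass, WT library A lying below both mutant libraries and WT library B above both. The list made 7.37% and 9.31% of gene reads in WT and 7.57% and 7.70% in brr6-1. Of 45 translation factor and tRNA ligase genes 7 fell (0 to 10), and of 33 proteasome genes 5 (1 to 10), near the background of 14.7%.

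Among membrane and cell wall genes most members did not pass, and those that did were mostly lower. ERG3, a sterol desaturase, was 789 and 1126 CPM in WT and 453 and 356 CPM in brr6-1 (log2 change -1.24 ± 0.21), among 30 sterol genes of which 9 fell (3 to 13, and 3 with scaling by totals) and 1, on chromosome III, rose. The phosphatidylcholine methyltransferases OPI3 and CHO2 fell with log2 changes of -1.18 ± 0.24 and -0.85 ± 0.15, among 26 phospholipid genes of which 7 fell (0 to 10, with 0 without brr6-1 library A, and 2 with scaling by totals). The fatty acid elongase ELO2, on chromosome III, rose by 0.87 ± 0.11. In the cell wall, the glucanase EXG1 was 524 and 663 CPM in WT and 196 and 221 CPM in brr6-1 (log2 change -1.51 ± 0.16) and the stress-induced glucan synthase GSC2 1415 and 1321 CPM in WT and 437 and 589.8 CPM in brr6-1 (log2 change -1.41 ± 0.16), among 36 cell wall integrity genes of which 13 fell (5 to 9, and 7 with scaling by totals). HAC1, the transcription factor of the unfolded protein response, fell by 0.92 ± 0.17 among 24 ER genes of which 5 fell (2 to 7). OPI3 and CHO2 lost their calls without brr6-1 library A (adjusted p 0.087 and 0.0585).

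The machinery around the nuclear envelope moved little. Of 39 nuclear pore and transport genes 1 fell (0 to 2), the importin KAP104 at 306 and 311 CPM in WT and 208 and 221 CPM in brr6-1 (log2 change -0.52 ± 0.14), none rose, and the median was 0.01. Of 16 genes listed as nuclear envelope partners of Brr6, 2 rose and 1 fell, with a median of -0.08. BRL1, the paralogue and partner of BRR6, was 53.8 and 65.4 CPM in WT and 83.8 and 80.0 CPM in brr6-1, a rise of 0.46 ± 0.13 (adjusted p = 0.0291). APQ12, the third partner, was 2.90 and 2.01 CPM in WT and 5.04 and 5.04 CPM in brr6-1 (log2 change 1.03 ± 0.27). Its mean was under 2 log2 CPM, a level at which genes outside chromosome III had a median of 0.76. NUR1, an inner nuclear membrane gene, fell by 0.61 ± 0.18. The calls of KAP104, BRL1, APQ12 and NUR1 were each lost without either brr6-1 library (adjusted p 0.0846 to 0.203), and those of KAP104 and NUR1 with scaling by totals (0.135 and 0.151). Leaving out WT library B also ended the calls of KAP104, APQ12 and NUR1, and leaving out WT library A those of BRL1 and NUR1 (0.0675 to 0.0987). With only the 4 galactose libraries fitted, APQ12 (0.0534) and BRL1 (0.0561) were not called. APQ12 was not called under cyclic loess either, with a log2 change of 0.66 (0.0824), nor NUR1 with at least 100 counts in 2 libraries (0.0556). Among 29 genes of SAGA, TREX-2 and Mediator 3 rose (2 to 5) and 1 fell, and 2 of the risers, SGF29 of SAGA at 1.26 ± 0.14 and SRB8 of Mediator at 0.80 ± 0.13, lie on chromosome III. Of 11 histone genes 4 fell (2 to 4). HHT2 fell by 1.17 ± 0.18. Of 20 cyclin and cell cycle genes 3 fell (1 to 3), and the inhibitor SIC1 fell by 0.92 ± 0.14.

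Mating and sporulation genes rose in small numbers. Of 26 pheromone response and fusion genes 6 rose (3 to 9), 3 of them on chromosome III, including the regulator KAR4 at 0.83 ± 0.14, and 3 fell (1 or 2). The kinase FUS3 fell by 0.82 ± 0.12. RME1, a haploid repressor of meiosis outside that list, was 147 and 167 CPM in WT and 71.1 and 84.2 CPM in brr6-1 (log2 change -1.01 ± 0.16). Of 33 meiosis and sporulation genes 9 rose (0 to 21) and 1 fell, RIM4, an RNA-binding regulator of meiosis, at 86.5 and 59.0 CPM in WT and 29.2 and 34.0 CPM in brr6-1 (log2 change -1.20 ± 0.20). Of the 33, 12 were under 2 log2 CPM, and none of the 9 risers was called without brr6-1 library A. Of 9 COS family genes tested, which lie near chromosome ends, 2 rose (1 or 2).

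Members of further lists passed as follows. Of 17 vacuolar ATPase genes 6 fell (1 to 7, and 2 with scaling by totals) and 1, on chromosome III, rose. Of 25 fatty acid and beta-oxidation genes 11 fell (3 to 10, and 3 with scaling by totals), with a median of -0.53, against 7 higher and 3 lower in glucose. Among 17 drug resistance genes 6 fell (3 to 7) and none rose. The aromatic, threonine, serine and glycine list had 8 lower (1 to 10) and 1 higher of 28, and the pyrimidine list 5 lower (3 to 5) and 2 higher of 17. Glucose sensing and repression genes had 5 lower (1 to 6) and 2 higher of 16, and maltose and sucrose genes 3 lower (1 to 3) of 8. Of 20 hypoxic genes 4 fell (1 to 3). The 22 genes of RNA polymerases I and III had 1 higher (1 or 2) and 1 lower (0 to 2), and the 7 adhesion genes 1 higher (1 to 4), on chromosome III. No a-specific gene and no member of the PAU family passed, of 6 tested in each list. The higher gene of the aromatic, threonine, serine and glycine list lies on chromosome III. The difference between the media passed for 5 of the 25 fatty acid and beta-oxidation genes. Under 2 log2 CPM were 8 of the 20 hypoxic genes, 5 of the 7 adhesion genes, 3 of the 6 a-specific genes and all 6 PAU genes. Of the lists above, 3 of the 9 COS genes and 5 of the 26 pheromone response and fusion genes were under that level.

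**Figure D4:**
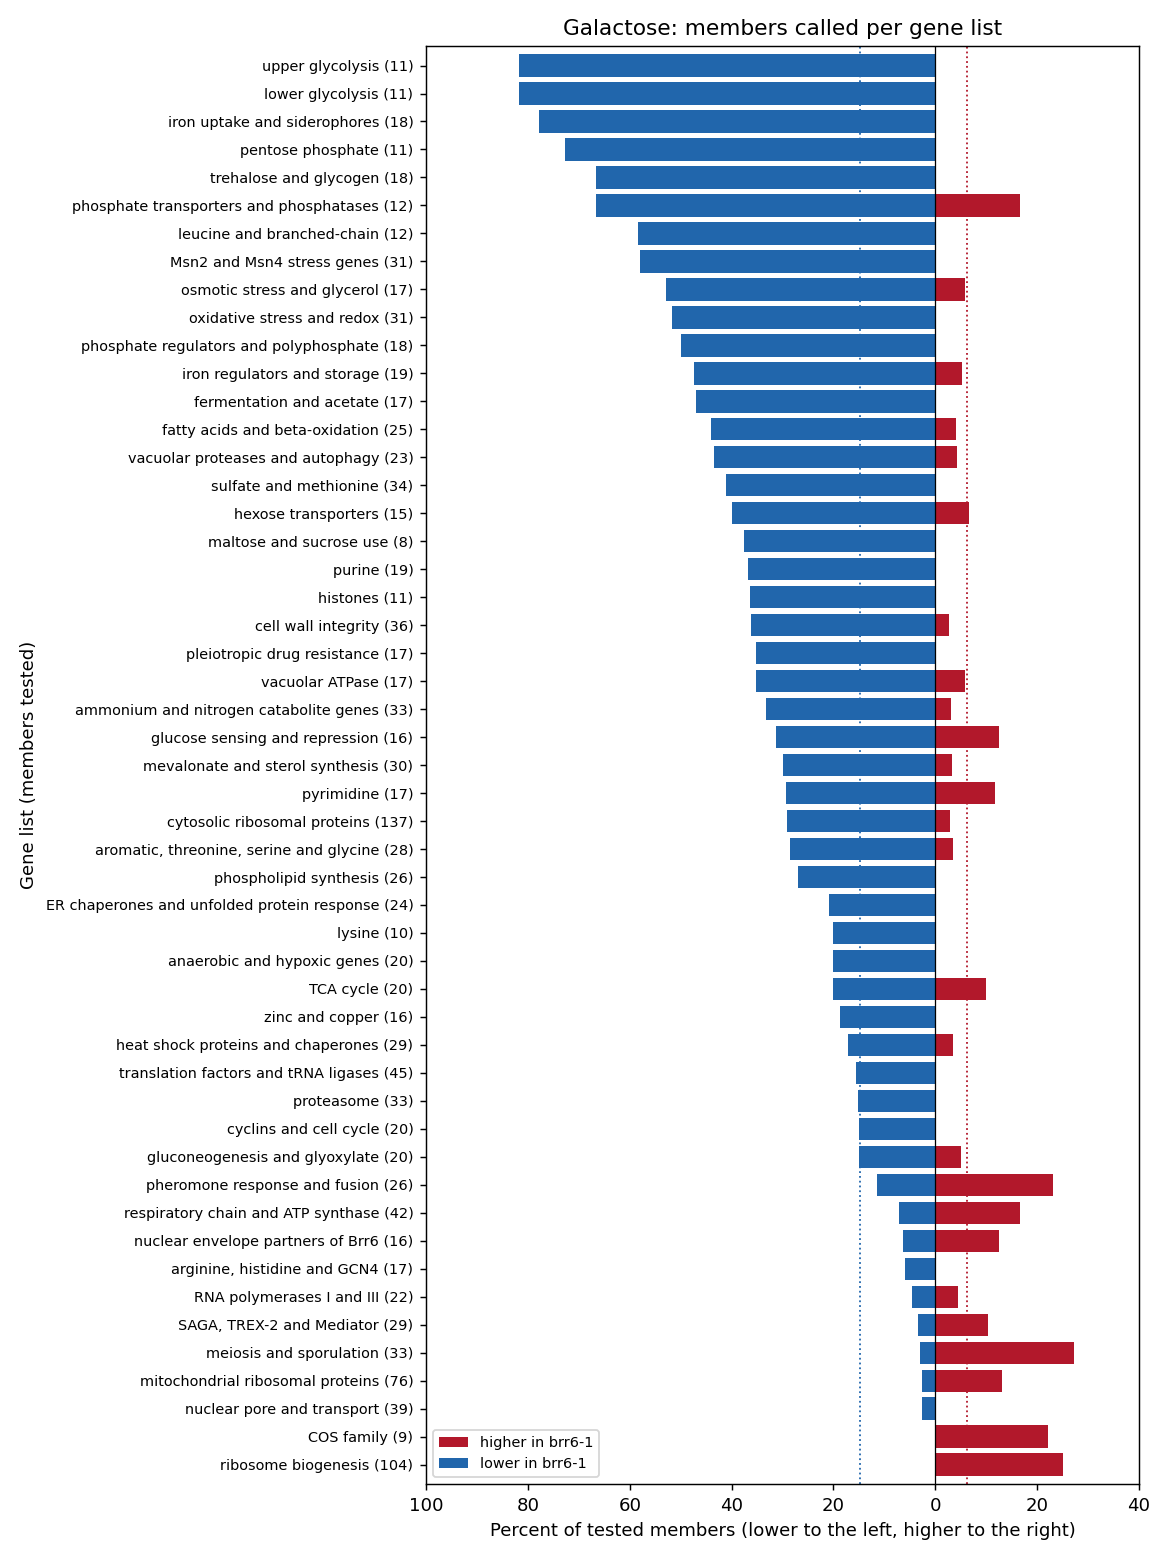
Bars give the percent of tested members of each gene list with at least 8 tested members that were lower (blue, to the left) or higher (red, to the right) in brr6-1 than in WT in galactose, with the number tested in parentheses. Dotted lines mark the shares over all genes outside chromosome III, 14.7% lower and 6.29% higher. The bars also count members on chromosome III, where 77.8% of tested genes were higher. Upper and lower glycolysis, at 9 of 11 each, have the longest blue bars, and ribosome biogenesis, at 26 of 104, has no blue bar.

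Against glucose, the mutant's changes in galactose were partly shared. Of 898 genes lower in galactose outside chromosome III, 440 were lower in glucose too, which is 49.0% of the galactose set and 35.8% of the glucose set of 1230 (20.1% of genes tested). Of 385 higher genes 128 were shared, or 33.2% of these and 14.2% of the 904 higher in glucose (14.8%). Opposite calls were rare, at 41 of the lower and 9 of the higher genes. The effect of brr6-1 differed between the media for 352 genes (5.59% of 6297), 9 of them on chromosome III, with 60 when brr6-1 library A was left out and 816 when WT library B was. Of genes called in galactose outside chromosome III, 159 of the lower and 37 of the higher also passed this test. Across the 5161 genes of at least 2 log2 CPM outside chromosome III, the fold changes in the media had a Pearson correlation of 0.47, over genes that are not independent. The 4 libraries of each comparison are separate, but strain and sequencing are shared.

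**Figure D5:**
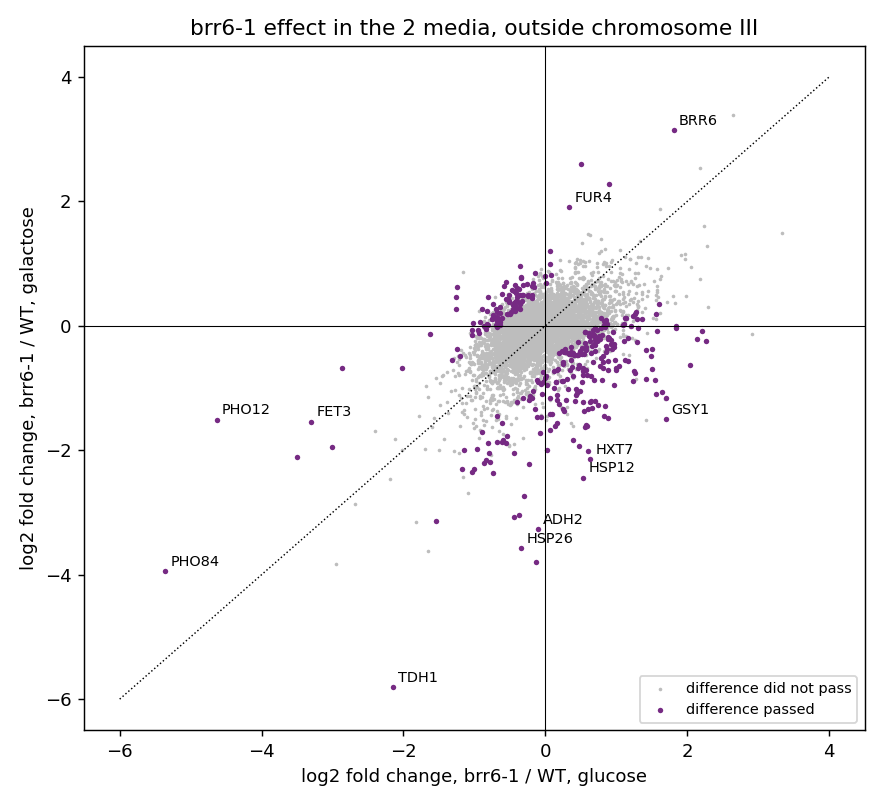
Each point is a gene outside chromosome III of at least 2 log2 CPM, with the log2 fold change of brr6-1 over WT in glucose (horizontal) and in galactose (vertical), and the dotted line marks equal change. Purple points passed the test of the difference between media. TDH1 (-5.81 in galactose, -2.15 in glucose) lies below the line, and PHO84 (-3.94 and -5.36) above it.

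The genes the series lists at peaks of a FLAG-tagged Brr6 fragment, from ChIP-seq in another strain, W303, were looked up here. The deposited peak table names 30 genes at 22 peaks, and 25 of them were tested. Of these 6 rose and 3 fell. Without chromosome III genes and BRR6, PDE1 and RAI1, 18 remained, of which FUR4 rose and HSP26, HXT7 and SHM2 fell. Taken by direction, 1 of 18 higher and 3 of 18 lower lay near the 6.29% higher and 14.7% lower among all genes outside chromosome III. The median log2 fold change of the 18 was 0.08.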

How the data were processed

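RNA-seq libraries were made from rRNA-depleted RNA of hot-phenol extracts with a directional kit and read as single 50-base ends, per the labels' protocols. The submitters' processing notes name cutadapt, TopHat and HTSeq with the R64 genome, without the strand setting of the counting, so reads of a gene and its antisense partner may not be told apart. The deposited files hold raw read counts per gene, 1 file per library. The 5 HTSeq summary lines were left out of library sizes and tests. Reads that did not align uniquely made 53.5% to 56.7% in the 4 galactose libraries. Genes with near-identical copies, among them hexose transporters, acid phosphatases, ribosomal protein pairs and COS genes, are uncertain for that reason. The deposited table of ChIP peaks was used for its gene names, not its values.

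Counts were fitted in edgeR 4.0.16 under R 4.3.3 with the quasi-likelihood test over all 8 RNA-seq libraries in 4 groups, TMM scaling, genes kept by filterByExpr with a minimum count of 10, and Benjamini-Hochberg adjustment over 6297 genes at 0.05. The effect in galactose, the effect in glucose and their difference were contrasts of that fit. Standard errors are the log2 fold change divided by the square root of F. With 4 residual degrees of freedom, p-values measure the spread between cultures as the labels define them. On simulated counts with known changes the fit called 178 of 198 changed genes with the right sign. The simulated spread followed the fitted trend alone, without differences between genes of like level, so this share need not hold for these data. TPM values were made from counts and RefSeq gene lengths. Of 6572 gene names 5898 matched the RefSeq table of R64, which supplied symbols and positions. Alternatives were other scalings, filters, samples and a DESeq2 1.42.0 Wald test, cyclic loess in limma 3.58.1, and each galactose library left out.

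The comparison, its gene lists and the genes named were chosen with earlier results of these data known, so they are descriptions of these libraries. Named were the locus and marker genes, the 15 largest falls and rises outside chromosome III and the 6 largest on it among called genes of at least 2 log2 CPM with no overlap between groups, and list members, at most 6 that passed and 3 that did not per list. FUS1, HXT14 and other genes of low level are included under that rule. Sequences and promoter motifs were not analysed here.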

Additional observations from a re-analysis of the deposited data

Results flagged for a closer look

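The effect of brr6-1 differed between galactose and glucose for 352 genes by the interaction test in edgeR, of which the genes named above are given here. Each value is the log2 fold change of brr6-1 over WT in galactose minus that in glucose, with 2 libraries in each of the 4 groups. A negative value means that the mutant stood lower, relative to WT, in galactose than in glucose. In the group of storage carbohydrate genes, the differences were -3.20 for GSY1, -1.41 for GSY2, -2.36 for GPH1, -2.41 for TSL1, -1.62 for TPS2 and -1.75 for PGM2. In the group of glycolysis, fermentation and pentose phosphate genes, the differences were -3.66 for TDH1, -1.59 for ENO1, -1.74 for HXK1, -1.31 for GLK1, -0.91 for PFK2, -0.85 for GPM1, -1.13 for GCR1, -1.01 for ADH1, -3.17 for ADH2, -1.60 for ALD4, -0.98 for PDC1, -1.95 for GND2 and -0.77 for ZWF1. In the group of sugar uptake and use genes, the differences were -2.78 for HXT7, -1.41 for HXT4, -1.44 for GAL3 and -1.99 for MAL12. In the group of stress, redox and glycerol genes, the differences were -3.24 for HSP26, -2.97 for HSP12, -2.17 for TMA10, -1.58 for PRB1, -3.67 for OYE3, -1.13 for OYE2, -2.63 for YML131W, -2.43 for ECM4 and -0.97 for GPP1. In the group of phosphate and metal genes, the differences were -1.32 for PHM8, -2.67 for FIT3, -1.40 for ARN1 and -2.0 for ZRT1. In the group of other genes, the differences were -5.15 for YCL048W-A, -1.85 for RIM4, -1.48 for GSC2, -1.34 for MET2 and -1.25 for HAP1. The difference was above 0 in another group, at 3.12 for PHO12, 2.88 for SPL2, 2.10 for YIR042C, 1.77 for FET3, 1.74 for GFD2, 1.56 for FUR4, 1.42 for PHO84, 1.39 for VTC3, 1.38 for YHL050C, 1.34 for BRR6, 1.05 for LEU1 and 0.82 for RAI1. In that group PHO12, SPL2, PHO84, VTC3, FET3 and LEU1 were lower in the mutant in both media, and further below WT in glucose. Of the genes given here, YCL048W-A, GLK1 and GFD2 lie on chromosome III, and YCL048W-A is a short, weakly expressed reading frame.

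The adjusted p-values of these differences in edgeR ran from 0.00106 to 0.0496. The cause of these differences was not tested.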

How the results depend on the processing

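Under the 13 alternatives, the count of higher genes outside chromosome III, 385 as reported, was 1170 with scaling by library totals alone and 245 with only the 4 galactose libraries fitted, and 49 to 644 with a library left out. The count of lower genes there, 898 as reported, was 437 with totals and 280 to 1017 with a library left out. On chromosome III, 93 to 138 genes were higher and 1 to 4 lower with a library left out, and the median log2 fold change of 1.03 became 1.27 with totals and 0.96 to 1.06 with a library left out. The count of genes whose effect differed between media, 352, was 585 with DESeq2's Wald test and 60 to 816 with a library left out. The cause of these moves was not tested, apart from the shift of all genes that totals bring. Same-lettered galactose libraries had a correlation of -0.04 between their deviations from group means. That value cannot decide whether the letters pair the samples. With the letter as a replicate block the counts were 450 higher and 949 lower outside chromosome III, 142 higher and 4 lower on it and 306 differing between media, with a chromosome III median of 1.04. Of 141 named genes that passed, 27 lost their call without brr6-1 library A, 15 without WT library B, 13 without brr6-1 library B and 3 without WT library A, and none changed direction under any alternative. Medians of 8 of the 58 gene lists changed sign with totals, 6 under cyclic loess, 5 with at least 100 counts in 2 libraries, 2 with chromosome III removed and 2 or 3 with a library left out, and none under the other 5 alternatives. Leaving a library out leaves 1 in that group, which is then assumed to vary like the other groups. With 2 libraries per group the depth of 16089594 reads or more per library was not varied.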
